A study of Mus musculus with 5 samples.

Results

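Expanded CD8 T cells are cells whose T cell receptor is carried by at least 1 other cell of the same pool, and they were compared here with CD8 T cells whose receptor was found once. The cells came from heart-draining mediastinal lymph nodes of C57BL/6 mice, sorted as CD44-high T cells, and were run as 1 droplet pool with matched receptor sequencing. The pool mixed mice of 2, 6, 12 and 18 months, marked by 8 hashtag antibodies, which are oligonucleotide-tagged antibodies that label the cells of each condition before pooling. No source used here names the age behind a hashtag or says whether a hashtag was 1 mouse, so hashtags served only as pairs, each giving 1 expanded and 1 single value, and p-values measure the spread between hashtags. All mice shared the strain, and no genotype or agent separated them.

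Members were chosen by measured values, in steps. Of 13016 barcodes, 10192 had at least 200 genes, at most 10% of UMIs from mitochondrial genes, and a top hashtag with at least 10 UMIs and 3 times the next. UMIs are the tagged original transcripts that the authors' counts hold. Of these cells 6974 had a productive TRB contig, the rearranged beta chain of the receptor, and 3113 of them held more Cd8a and Cd8b1 UMIs than Cd4 UMIs. A clonotype held by 2 or more of the 6974 cells was called expanded. This gave 837 expanded CD8 cells in 305 clonotypes and 2276 single CD8 cells. This selection rested on receptor contigs and on the coreceptor genes, so the sizes of clones are a description and carry no test, whereas the levels of other genes did not enter it. At the edge of the CD8 gate, 32.1% of the 361 cells that passed by 1 UMI were expanded, and so were 30.4% of the 1986 cells with equal CD8 and Cd4 UMIs, which were left out.

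A T cell that meets its antigen divides, and its daughters inherit the same rearranged receptor, so a receptor sequence works as a heritable tag of a clone. CD8 T cells that remain antigen-inexperienced, or that gain memory markers through cytokines without antigen, are known for lymph node homing genes and Ly6C. Cells under lasting antigen stimulation are known for inhibitory receptors such as PD-1, TIGIT and LAG-3 and for the factor TOX, and granzyme K marks a CD8 T cell state described in old mice.

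The receptor sequences of the largest clones show what defined a clone. Each line gives the CDR3 of the TRB chain, the loop that contacts the peptide, from 5′ to 3′ as read in the receptor library. Lower case marks bases shared with the germline end of the V gene or start of the J gene of GENCODE M21 (GRCm38), and capitals mark the junction bases between them.
TRBV15 with TRBJ2-7, hashtag 7: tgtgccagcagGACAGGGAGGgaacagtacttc
TRBV12-2 with TRBJ1-4, hashtag 7: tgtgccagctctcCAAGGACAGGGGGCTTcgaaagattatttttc
TRBV2 with TRBJ2-1, hashtag 7: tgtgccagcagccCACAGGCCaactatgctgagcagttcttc
TRBV12-2 with TRBJ1-1, hashtag 7: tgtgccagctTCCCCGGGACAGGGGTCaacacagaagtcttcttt
TRBV19 with TRBJ2-7, hashtag 8: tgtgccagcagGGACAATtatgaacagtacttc
TRBV16 with TRBJ2-7, hashtag 8: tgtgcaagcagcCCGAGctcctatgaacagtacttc
TRBV13-3 with TRBJ1-6, hashtag 7: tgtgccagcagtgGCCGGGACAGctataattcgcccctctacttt
TRBV16 with TRBJ2-5, hashtag 5: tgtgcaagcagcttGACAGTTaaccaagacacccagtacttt
These lines show 8 of the 9 clones with at least 8 CD8 cells, and the other is a TRBV19 with TRBJ1-5 clone of hashtag 8. The 9 clones held 8 to 31 CD8 cells each. Each of the 9 had 1 TRB sequence and 1 TRA sequence in all its cells with a chain, by the contig with the most UMIs. This follows from the clonotype call, which rests on both chains, and is no separate result. The TRBV15 clone held 31 cells, of which 30 carried hashtag 7. The germline segment Trbd1 reads gggacagggggc, and 8 of the 9 junctions shared a run of 5 or more bases with it, the longest being 11 of its 12 bases. The same held for 69.2% of all 305 expanded and 71.0% of the 2276 single clonotypes, so most receptors of both states held such a run.

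Other receptor features were counted too. The most frequent V gene call was TRBV3 in the expanded state, 10.8% of clonotypes, and TRBV12-2+TRBV13-2, a joint call, in the single state, 8.35%. Both states held 22 different TRB V gene calls, counting a joint call as 1, and had a median TRB CDR3 of 42 nucleotides and a median of 10 junction bases. The mean CDR3 length per hashtag was 40.5 to 43.1 nucleotides in expanded and 41.3 to 42.1 in single clonotypes, a mean difference of -0.28 ± 0.88 (SD, n = 8 hashtags, exact sign-flip permutation test, two-sided, p = 0.383). This difference lay within the spread between hashtags.

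Most clones were small and stayed within a hashtag. Of the 305 clonotypes, 158 held 2 CD8 cells, 65 held 3 or 4, 31 held 5 or more and 6 held 10 or more. The other 51 had 1 CD8 cell, their further cells lying outside the CD8 gate. Of 1796 pairs of CD8 cells that shared a clonotype, 95.2% also shared a hashtag, and 35 clonotypes spanned 2 or more hashtags. Barcodes of a pair differed at a median of 12 of 16 bases, and 1 pair differed at 3 or fewer. The single class was not free of relatives: 440 of its 2276 cells, 19.3%, shared their TRB sequence with a cell of another clonotype.

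**Figure D1:**
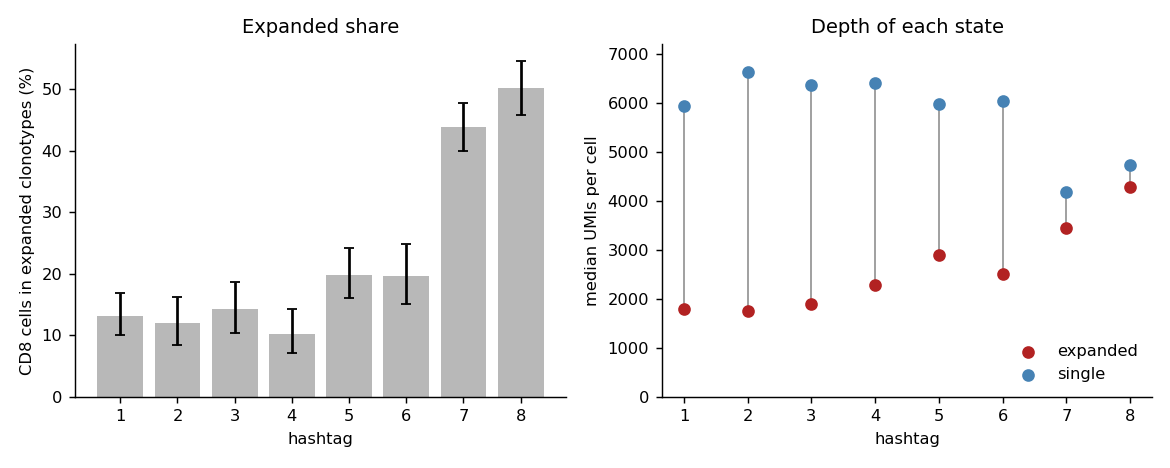
Left, percent of CD8 cells in expanded clonotypes per hashtag, with exact 95% binomial intervals, which treat cells as independent, as error bars. Right, median UMIs per cell of expanded (red) and single (blue) cells per hashtag, joined by a line. Hashtags 7 and 8 hold the largest expanded shares, 43.8% and 50.2%, and expanded cells lie below single cells in all 8 hashtags.

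The expanded share ran from 10.3% of CD8 cells in hashtag 4 (30 of 292, exact 95% interval 7.04 to 14.3) to 50.2% in hashtag 8 (260 of 518, interval 45.8 to 54.6). Hashtags 1 to 6 lay between 10.3% and 19.9%, and hashtag 7 reached 43.8% (287 of 655, interval 39.98 to 47.7). The intervals of hashtags 7 and 8 did not overlap those of the other 6. The intervals treat cells as independent, although cells of 1 clone enter together, so they understate the error and carry no test. Hashtags 7 and 8 also held the most CD8 cells, 655 and 518 against 276 to 396 in the others. The part of cell number in the expanded share was not tested. Clonotypes with 5 or more CD8 cells in the hashtag numbered 15 in hashtag 7 and 11 in hashtag 8, with 1 each in hashtags 1, 4 and 5 and 0 in the rest. The largest clone of a hashtag made up 4.23% to 20% of its expanded cells.

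Expanded cells had fewer UMIs per droplet than single cells. Their median was 1755 to 4289 UMIs per cell over the 8 hashtags (middle value 2386), against 4176 to 6621 (middle value 6004) for single cells. The median was lower in 8 of 8 hashtags, with a mean difference of -3173 ± 1693 UMIs (SD, n = 8, exact sign-flip permutation p = 0.007812, the smallest that 8 pairs can give, and 0.0234 after Benjamini-Hochberg adjustment over 9 measures). The difference was -4866 to -3068 UMIs in hashtags 1 to 6, and -725 and -435 UMIs in hashtags 7 and 8. Genes per cell followed (824.5 to 1640 against 1600 to 2012, adjusted permutation p = 0.0234), as did the mitochondrial share of UMIs (1.41% to 1.83% against 1.85% to 2.09%, adjusted permutation p = 0.0234). A productive TRA contig, the alpha chain, was found in 68.5% to 84.3% of expanded and 80.1% to 87.8% of single cells (lower in 7 of 8). Cells with 2 or more TRB contigs made up 1.85% to 20% of expanded and 5.12% to 19.8% of single cells (lower in 7 of 8). For 2 or more TRA contigs the shares were 0% to 17.1% and 5.41% to 17.2% (lower in 6 of 8). Since clonotypes are called from both chains, these measures are tied to the rule and carry no test. No doublet caller was run, and the part of cells with extra chains in the depth difference was not tested. Because depth differed so clearly between the states, the fit was repeated in 3 ways: cells thinned to 1000 UMIs each, cells of over 3000 UMIs (5 hashtags with at least 10 cells in each state), and cells of 1000 to 3000 UMIs (22 to 93 expanded and 28 to 107 single cells per hashtag). Values from these fits are given below where they bear on a call, and the fit on cells of 1000 to 3000 UMIs was run with and without the filter on low counts. The part of depth in the results was not tested further.

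The gate was checked against marker genes. The 9 T cell markers summed to 4817 to 7315 CPM (counts scaled to 1000000 UMIs per sum) in expanded and 4964 to 5984 in single cells. Of the markers of other cells, 9 of 12 for B cells, 3 of 7 for NK cells, 1 of 3 for invariant NKT cells, 3 of 9 for myeloid cells and 7 of 8 for CD4 or regulatory T cells passed the filter on low counts, and none of these passed the test below. The CD4 list includes Cd4, whose level the rule limits in both states, so Cd4 itself is no check of the gate. None of the listed markers was at 0 in all sums. B cell markers summed to 410 to 5124 CPM in expanded and 605 to 1912 in single cells, higher in 4 of 8 hashtags, and myeloid markers to 172 to 1191 and 97.3 to 380.5, higher in 7 of 8. Among gamma delta T cell markers 1 was tested and passed, Tcrg-C2, a gamma chain constant segment (log2 change 1.17, SE 0.28, edgeR adjusted p = 0.0026), higher in 4 and lower in 4 hashtags, and the list summed to 0 to 115 CPM in expanded and 15.8 to 43.9 in single cells. The part of these markers in the results was not tested.

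Across 7792 genes, 81 were higher in expanded cells, 1.04% of those tested, and 175 were lower, 2.25%. Each hashtag gave 1 UMI sum per state, of 75754 to 1251882 UMIs in expanded and 1327000 to 2246249 in single cells, and the sums were compared by edgeR's quasi-likelihood test with hashtag as a block, at a Benjamini-Hochberg adjusted p under 0.05. The median log2 change of all genes was -0.02. Among called genes with the same sign in at least 6 hashtags, the 12 largest rises were 9 histone genes, Epha3 (1.86, an ephrin receptor), Esco2 (1.47, a cohesin acetyltransferase) and Kif22 (1.46, a mitotic kinesin). The largest falls were those of Klra7 (-1.84), Vipr1 (-1.73, a receptor for vasoactive intestinal peptide), Rnf130 (-1.65), Gpr15 (-1.63), Rapgef4 (-1.58) and Ramp1 (-1.51, a subunit of the CGRP receptor). Expanded cells held few UMIs of these genes. In all they had 32 of Klra7, 12 of Vipr1, 16 of Rnf130, 31 of Gpr15, 10 of Rapgef4 and 30 of Ramp1. Of the 175 lower genes 64 encode ribosomal proteins, the lowest at -0.55.

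**Figure D2:**
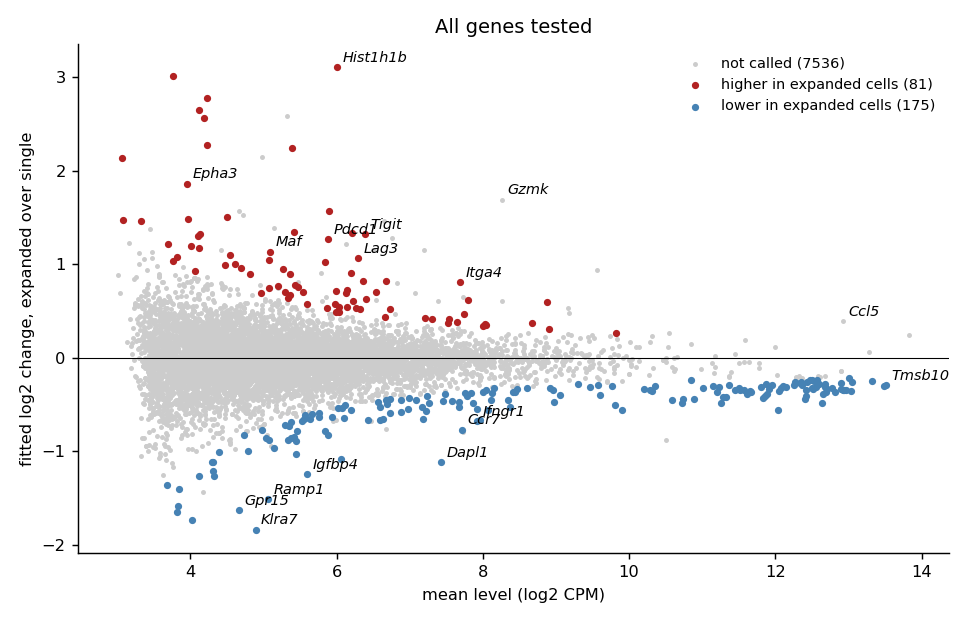
Fitted log2 change of expanded over single CD8 cells against mean level (log2 CPM) for the 7792 genes tested. Red points are the 81 genes called higher and blue points the 175 called lower. Gzmk and Ccl5 are labelled although neither was called.

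Genes of the checkpoint and exhaustion list were higher in expanded cells for 5 of 11 tested, against 1.04% of all genes, and lower for none, with a list median of 0.82 on the log2 scale. Pdcd1 (chromosome 1, 94038305 to 94052553, GRCm38), which encodes the inhibitory receptor PD-1, stood at 33.1 to 159 CPM in expanded cells (median 96.3) and 12.8 to 70.8 in single cells (median 29.2). It was higher in 8 of 8 hashtags although the ranges overlapped, because single cells of hashtags 7 and 8 (70.8 and 60.5 CPM) exceeded expanded cells of hashtags 2 and 3 (52.8 and 33.1 CPM). Its log2 change was 1.27 (SE 0.15, edgeR adjusted p = 6.9e-13). Tigit (chromosome 16, 43648867 to 43664146), another inhibitory receptor, had 11.03 to 293 CPM (median 113) against 8.95 to 117 (median 26.1), also higher in 8 of 8, a log2 change of 1.32 (SE 0.14, edgeR adjusted p = 4.5e-15). Lag3, an inhibitory receptor that binds MHC class II, rose by 1.07 (SE 0.17), with 26.4 to 220 CPM against 14.7 to 110. It was higher in 7 of 8 hashtags, hashtag 2 being the exception at 26.4 against 56.0 CPM.

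Tox, the factor tied to lasting stimulation, rose by 0.82 (SE 0.21, edgeR adjusted p = 0.0443). Its rise sat mainly in hashtags 6 and 7, where expanded cells had 326 and 312 CPM and single cells 73.9 and 125, while the other hashtags had 55.1 to 109 and 49.0 to 101. Nr4a2, an orphan nuclear receptor induced by receptor signals, rose by 1.49 (SE 0.32) from few UMIs, 103 in all expanded cells, of which 5 cells held 48.5%. It was higher in 5 hashtags and lower in 3, and 1 clone held 33.0% of those UMIs. Among transcription factors of effector and memory cells, 3 of 13 were higher, against 1.04% of all genes, and none lower: Maf (1.14), Bhlhe40 (1.10) and Ikzf3 (0.42), each in 8 of 8 hashtags. Maf was at 0.02 (SE 0.36), Bhlhe40 at 0.62 (SE 0.42) and Ikzf3 at -0.03 (SE 0.20) in cells of 1000 to 3000 UMIs with no filter on low counts. After thinning, Maf was at 1.10 (SE 0.31, edgeR adjusted p = 0.0219), past the threshold. Ikzf3 was at 0.33 (SE 0.17, edgeR adjusted p = 0.484) there, not called, and Bhlhe40 had no value. Tbx21 and Eomes, the T-box factors of effector CD8 cells, had log2 changes of -0.11 (SE 0.16) and 0.20 (SE 0.12) and were not called.

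The values of these genes differed between depth classes. In cells of over 3000 UMIs the changes were 1.29 for Pdcd1, 1.30 for Tigit and 1.45 for Lag3, and after thinning 0.98, 0.85 and 0.76. Tox was at 1.05 (SE 0.26, edgeR adjusted p = 0.119, not called) in cells of over 3000 UMIs. After thinning it was at 0.998 (SE 0.19, edgeR adjusted p = 0.00017), past the threshold. In cells of 1000 to 3000 UMIs, with no filter on low counts so that each gene kept a value, they were 0.16 (SE 0.24), 0.58 (SE 0.26) and -0.23 (SE 0.27), and Tox had -0.04 (SE 0.23). Within that window the rises of Pdcd1, Lag3 and Tox were thus not found, and Tigit, though positive, was not called (edgeR adjusted p = 0.981).

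**Figure D3:**
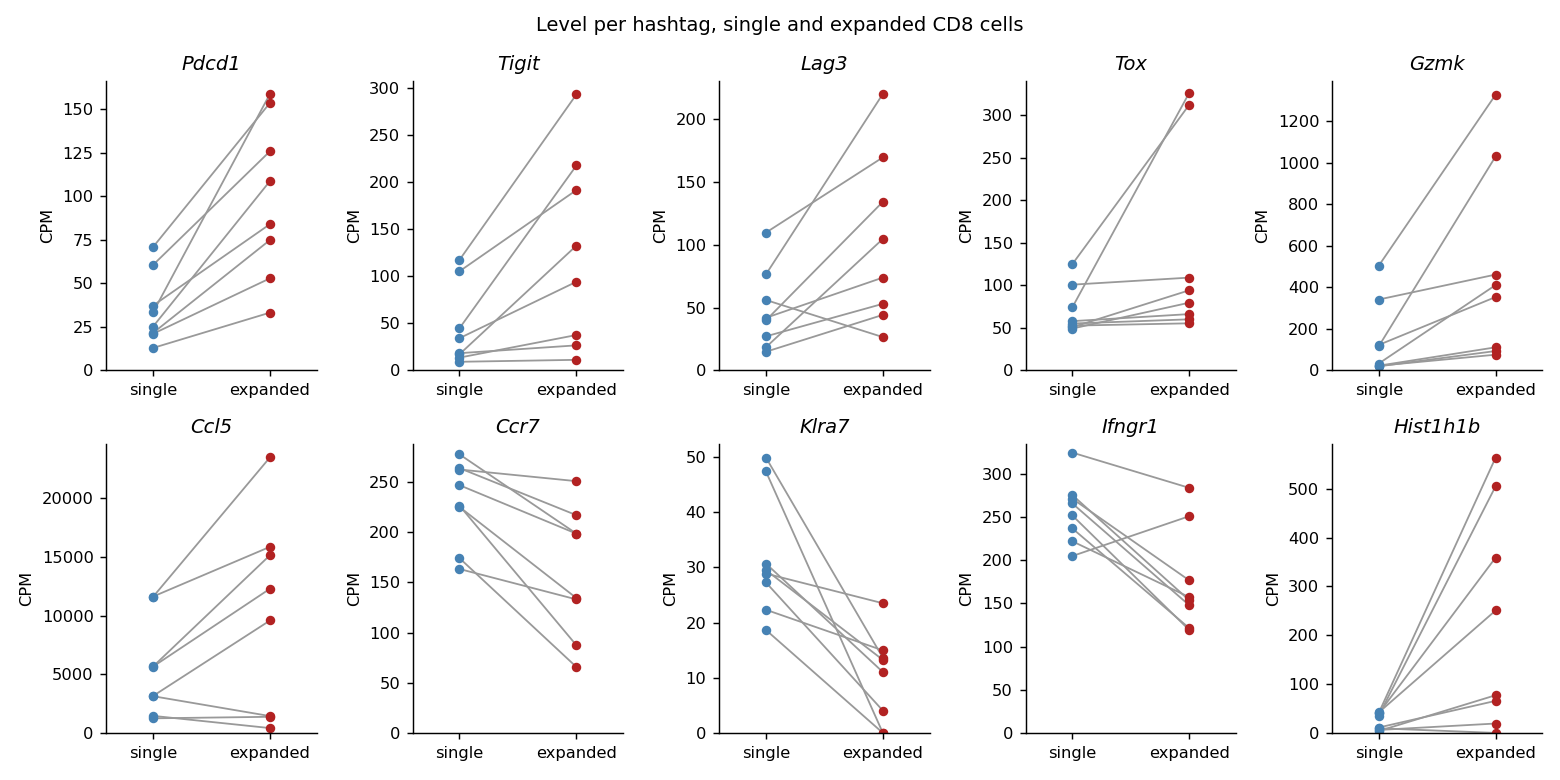
CPM of 10 genes in the 8 hashtags, single cells (blue) joined to expanded cells (red) of the same hashtag. Pdcd1, Tigit, Tox and Gzmk go up in every hashtag and Ccr7 and Klra7 go down in every hashtag, whereas Ccl5 goes both ways.

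Cytotoxic and chemokine genes gave no call in the fit over all cells. None of 13 cytotoxic granule genes and none of 4 chemokines passed, against 1.04% of all genes called higher. In lists this short, 0 calls lies near that share and is no result about them. Gzmk (chromosome 13, 113171608 to 113225908), which encodes granzyme K, a protease of the granules, nevertheless stood at 74.8 to 1327 CPM in expanded cells (median 381) and 18.7 to 503 in single cells (median 73.5), above the single cells of the same hashtag in 8 of 8. Its log2 change was 1.69 (SE 0.37), and its edgeR adjusted p was 0.0649, on the far side of the threshold. Some other settings put Gzmk past it, among them DESeq2 (log2 change 1.99, adjusted p = 9.2e-06), 1 cell per clonotype and hashtag (1.57, edgeR adjusted p = 1.6e-06), thinning to 1000 UMIs (1.05, 2.4e-05) and leaving out hashtag 8 (2.06, 0.00527). Most did not. Leaving out any other hashtag gave an edgeR adjusted p of 0.0959 to 0.184. The stricter CD8 gate gave 0.128, clonotypes of 3 or more cells 0.276 and a hashtag 10 times the second 0.247. Over all settings the adjusted p ran from 7.8e-07 to 0.36. In cells of 1000 to 3000 UMIs, with no filter on low counts, Gzmk was at 0.72 (SE 0.16, edgeR adjusted p = 0.0102), and with that filter at 0.77 (SE 0.21, edgeR adjusted p = 0.0842), not called. Ccl5, a chemokine of memory CD8 cells, ranged from 411 to 23490 CPM in expanded and 1243 to 11620 in single cells. It was higher in 6 hashtags and lower in hashtags 1 and 3, with a log2 change of 0.39 (SE 0.41, edgeR adjusted p = 0.865). Prf1, the pore former perforin, had 0.29 (SE 0.13), Nkg7 0.26 (SE 0.16) and Xcl1 0.65 (SE 0.41), none called. Ccl3, another chemokine, had 2.15 (SE 0.61, edgeR adjusted p = 0.147), higher in 4 and lower in 4 hashtags. It passed in cells of 1000 to 3000 UMIs with no filter on low counts, at 1.78 (edgeR adjusted p = 0.0113). Gzma, a further granzyme gene, had 0.78 (SE 0.68), not called, with 85.5% of its expanded UMIs in 1 clone. It was at -2.22 in that window (edgeR adjusted p = 0.00807) and 1.705 in cells of over 3000 UMIs (edgeR adjusted p = 0.00159). Gzmb, Ifng, Klrg1 and Zeb2 were under the filter on low counts, with 103, 53, 49 and 41 UMIs in all expanded cells.

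The share of cells with a UMI, after thinning each cell to 1000 UMIs (63 expanded and 84 single cells were shallower and left out), gave a like picture. A Gzmk UMI was found in 2.13% to 65.2% of expanded cells (median 21.9%) and 1.497% to 34.1% of single cells (median 7.64%), higher in 8 of 8 hashtags by a median of 10.3 points (exact sign-flip permutation p = 0.007812, 0.0586 after adjustment over 15 genes). Cells of the pool with more Cd4 than CD8 UMIs, thinned likewise and taken over all hashtags, had a Gzmk UMI in 11.6%. The shares of several hashtags lay at or under that level. Whether it reflects background or expression in those cells was not tested, so it is no floor. Cd79a, a B cell gene, was found in 2.58% of expanded and 2.05% of single cells over all hashtags. Il7r, the receptor for the survival cytokine interleukin-7, was found in 14.7% to 43.8% of expanded and 21.5% to 51.2% of single cells, lower in 8 of 8 (adjusted permutation p = 0.0586). None of the 15 genes passed the adjusted threshold, and 5 had an unadjusted permutation p under 0.05: Gzmk, Il7r, Pdcd1, Ly6c2 and Ccr7. Over all hashtags pooled, the Ccl5 share was 80.9% of expanded and 61.5% of single cells, whereas within hashtags its median difference was 8.55 points with 2 hashtags lower, and hashtags 7 and 8 supplied 287 and 260 of the 837 expanded cells.

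Homing and quiescence genes were lower in expanded cells. Of 18 genes of the naive and recirculation list, 10 were called lower, none higher, and all 18 had a negative log2 change (median -0.42), against 2.25% of all genes called lower. Ccr7, the receptor that guides T cells into lymph nodes, stood at 65.7 to 251 CPM in expanded cells (median 166) and 163 to 278 in single cells (median 237), lower in 8 of 8, and fell by 0.77 (SE 0.12, edgeR adjusted p = 1.2e-07). Dapl1, a gene of resting CD8 cells, fell by 1.11, Satb1, a chromatin organiser, by 0.65, Lef1, a factor of naive and early memory cells, by 0.48, and Il7r by 0.47. Tcf7, the partner factor of Lef1, had -0.19 (SE 0.10) and was not called.

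The falls varied with depth from gene to gene. In cells of over 3000 UMIs the list median was -0.65 over 18 genes, with Ccr7 at -1.33, and after thinning it was -0.30 over 17 genes. In cells of 1000 to 3000 UMIs the median was 0.04 over the 15 genes past the filter on low counts, and Ccr7 had 0.18 (SE 0.19) with that filter and 0.08 (SE 0.19) with none. With no filter, Klf2, a factor of quiescence and recirculation, was at -0.55 (SE 0.11, edgeR adjusted p = 0.00198) in that window, past the threshold and below its -0.31 over all cells. Il7r and Bcl2, a survival factor, were at -0.36 (SE 0.14) and -0.39 (SE 0.18) there, against -0.47 and -0.36 over all cells.

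**Figure D4:**
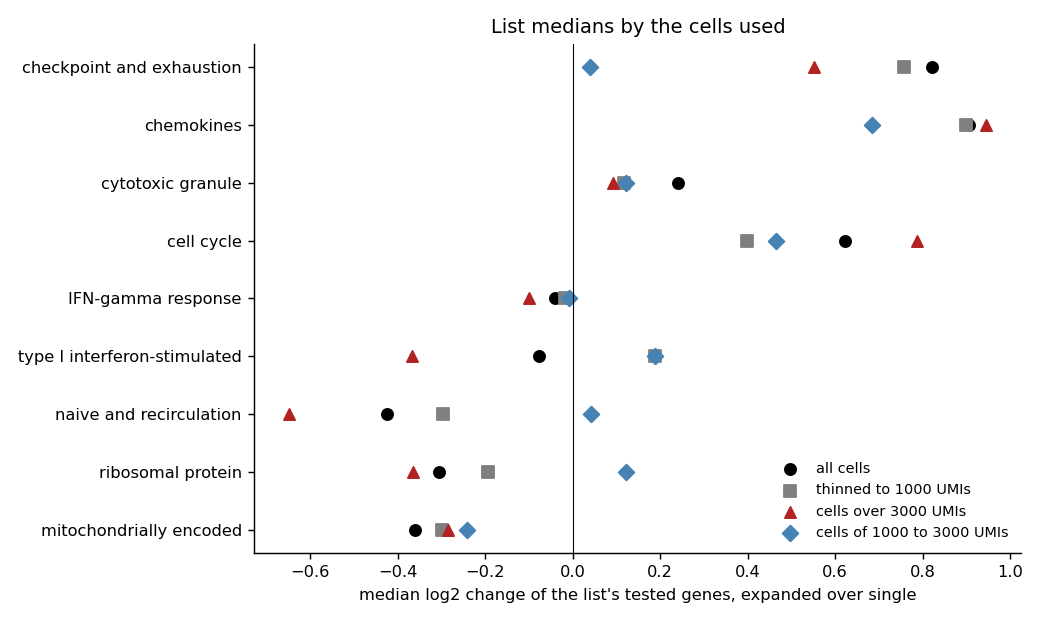
Median log2 change of the tested genes of 9 lists, expanded over single, in all cells (black), cells thinned to 1000 UMIs (grey), cells of over 3000 UMIs (red) and cells of 1000 to 3000 UMIs (blue). The naive and ribosomal protein medians lie below 0 in the first 3 and at 0.04 and 0.12 in the last.

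Receptors shared with NK cells were lower where they were called. Klra7 (chromosome 6, 130218605 to 130233322), a Ly49 receptor for MHC class I, stood at 0 to 23.5 CPM in expanded cells (median 12.1) and 18.7 to 49.9 in single cells (median 29.2). It was lower in 8 of 8 hashtags and fell by 1.84 (SE 0.28, edgeR adjusted p = 7.0e-08), the lowest log2 change of all genes tested, from 32 UMIs in expanded and 415 in single cells. Klra3, its relative, fell by 1.12, and since Ly49 genes are near-identical copies, reads may be split between them. The 6 tested of 18 NK receptor genes had negative log2 changes and 2 were called, against 2.25% of all genes called lower. Klrg1, a terminal effector receptor under the filter, had 49 UMIs in expanded and 55 in single cells and was higher in 5 of 8 hashtags. In cells of 1000 to 3000 UMIs, with no filter, Klra7 was at -0.39 (SE 0.58) and Klra3 at 0.09 (SE 0.61).

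Among adhesion and trafficking genes the directions were mixed. Itga4, the alpha4 integrin chain that binds VCAM-1, rose by 0.81 (SE 0.11, edgeR adjusted p = 3.6e-08), with 59.8 to 631 CPM against 65.6 to 308, higher in 6 hashtags and lower in hashtags 1 and 3. It was at 0.96 in cells of over 3000 UMIs, but at 0.38 (edgeR adjusted p = 0.212) after thinning and 0.01 (SE 0.18) in cells of 1000 to 3000 UMIs, where the call was lost. Its partner Itgb1 rose by 0.34, while Itgb7, the other partner, fell by 0.37. Itgae, the epithelial retention integrin, fell by 1.27, and Gpr15, a gut homing receptor, fell by 1.63 with 8 of 8 hashtags lower. Both rest on few UMIs in expanded cells. Itgae had 24, of which 1 clone held 45.8%, and was lower in 6 and higher in 2 hashtags. Gpr15 had 31, of which 1 clone held 38.7%. Among cells of 1000 to 3000 UMIs, with no filter on low counts, Itgb1 was at -0.11, Itgb7 at -0.34, Itgae at -0.64 and Gpr15 at -0.98, none past the threshold. Cxcr3 and Cxcr6, receptors for inflammatory chemokines, had 0.16 and -0.13 and were not called.

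Genes of cytokine sensing moved in both directions. Ifngr1, the ligand-binding chain of the interferon gamma receptor, stood at 119 to 284 CPM in expanded (median 155) and 205 to 324 in single cells (median 259). It was lower in 7 of 8 hashtags, hashtag 2 being higher, and fell by 0.68 (SE 0.11, edgeR adjusted p = 5.4e-07). Il18r1, an interleukin-18 receptor chain, fell by 0.78, and Il10ra, the interleukin-10 receptor chain, rose by 0.70. Among cells of 1000 to 3000 UMIs, with no filter on low counts, values were -0.30 (SE 0.18) for Ifngr1, -0.42 (SE 0.35) for Il18r1 and 0.41 (SE 0.26) for Il10ra, none past the threshold. Of 32 tested genes of the interferon gamma response list none was higher and 3 were lower, against 2.25% of all genes called lower, the GTPase genes Igtp (-0.66), Tgtp1 (-1.21) and Tgtp2 (-0.49), with a list median of -0.04. Igtp was at -0.59, Tgtp1 at -0.63 and Tgtp2 at 0.31 in cells of 1000 to 3000 UMIs with no filter, none past the threshold. Tgtp1 and Tgtp2 are near-identical, so their reads are uncertain between them. B2m and H2-K1, which form MHC class I, had -0.12 and -0.04. Type I interferon-stimulated genes had 3 of 29 lower (Ifi206, Trim30a and Slfn1), against the same 2.25%, none higher and a median of -0.08.

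Most histone genes and a smaller share of cell cycle genes were called higher. The 17 tested histone genes, a group chosen after its values were seen, had 11 called higher, against 1.04% of all genes, and a median log2 change of 1.503. Hist1h1b, a linker histone, was at 0 to 564 CPM in expanded (median 164) and 3.84 to 41.9 in single cells (median 23.3), with a log2 change of 3.11 (SE 0.26, edgeR adjusted p = 2.3e-05), higher in 7 of 8 hashtags and at 0 in expanded cells of hashtag 4. Its 410 UMIs in expanded cells came from 47 of 837 cells, and 5 cells held 52.7% of them. It was at 1.66 (SE 0.49, edgeR adjusted p = 0.27) in cells of 1000 to 3000 UMIs with no filter. The cell cycle list had 5 of 20 higher (Rrm2 1.34, Cdk1 1.20, Cenpa 0.75, Mcm3 0.69 and Hmgb2 0.60), with all 20 positive and a median of 0.62, and Mki67, the division marker, was at 0.55 (SE 0.24) and not called. Hmgb2, a chromatin protein of dividing cells, was past the threshold in that window too, at 0.71 (SE 0.16, edgeR adjusted p = 0.0102). Without cells that held a Mki67 or Top2a UMI, no histone was called (median 0.19) and 1 of 20 cell cycle genes was, while the naive list had 9 genes called lower and the checkpoint list had 6 called higher.

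Ribosomal protein and mitochondrially encoded genes were both grouped after their values were seen. They were lower for 64 of 81 (median -0.30) and 10 of 13 (median -0.36), against 2.25% of all genes called lower. The 81 ribosomal protein genes summed to 285200 to 369000 CPM in expanded and 343300 to 394500 in single cells, lower in 8 of 8 hashtags. In cells of 1000 to 3000 UMIs their median was 0.12 over 80 genes, and 6 of the 64 called genes kept a negative sign there. Of the 76 other called genes tested in that window 59 kept their sign, and so did 17 of the 19 called higher.

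The largest clones did not share 1 profile. In all 31 clonotypes with at least 5 CD8 cells, Gzmk and Ly6c2, which encodes a Ly6C surface protein, were set against each other by the share of a clone's cells with a UMI. At a limit of 50% of cells, set after the values were seen, 21 clonotypes had Gzmk alone, 7 had Ly6c2 alone, 2 had both and 1 had neither. These counts are a description with no test. The Gzmk clonotypes had a median Gzmk level of 1333 CPM (674 to 2367) and a median Ly6c2 level of 0 (0 to 499). The Ly6c2 clonotypes had a median Ly6c2 level of 2278 CPM (331 to 4321) and a median Gzmk level of 0 (0 to 54.6).

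**Figure D5:**
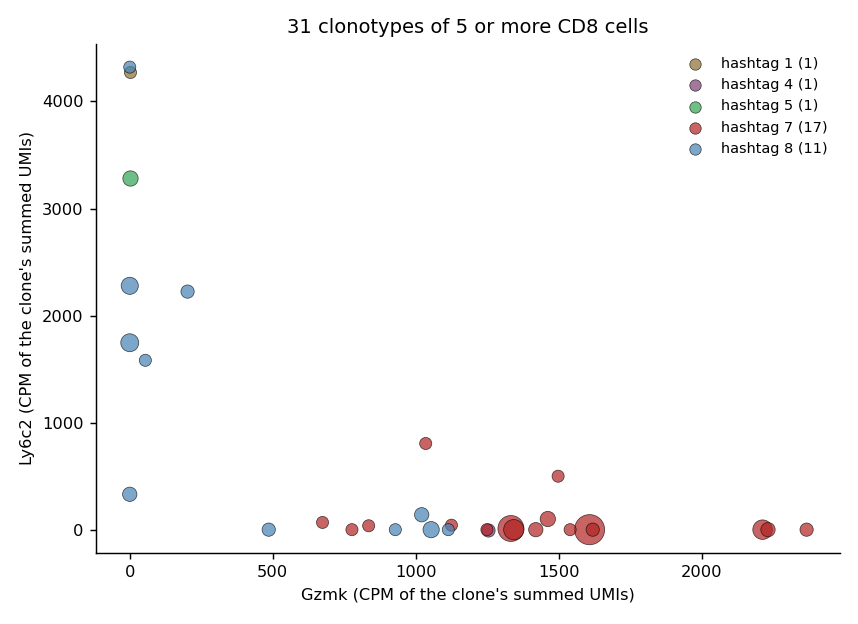
Gzmk against Ly6c2 (CPM of each clone's summed UMIs) for the 31 clonotypes of 5 or more CD8 cells, with point area proportional to cell number and colour by main hashtag. Most points lie along one axis or the other, and the 17 clonotypes of hashtag 7 lie at 674 to 2367 CPM of Gzmk.

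Among the 9 clones of at least 8 CD8 cells, the split was plain. The TRBV15 clone of hashtag 7 had Gzmk UMIs in 29 of 31 cells (1608 CPM), Pdcd1 in 20, Tigit in 22 and Ly6c2 in 0. The TRBV16 with TRBJ2-7 clone of hashtag 8 had Gzmk in 8 of 9 cells (1054 CPM), the highest Lag3 level of the 9 (1483 CPM) and no Ly6c2 or Ccr7 UMI. Conversely, both TRBV19 clones of hashtag 8 had Ly6c2 in every cell (1746 and 2278 CPM) and Ccr7 in 10 of 11 and 8 of 10 cells, with no UMI of Gzmk, Pdcd1, Tigit or Lag3. The TRBV16 with TRBJ2-5 clone of hashtag 5 was alike, with 3282 CPM of Ly6c2 in 8 of 8 cells and no Gzmk UMI. Over these 3 clones 0 Gzmk UMIs in 232872 UMIs allows up to 12.9 CPM, and over the 4 clones without Ly6c2, 0 in 239013 UMIs allows up to 12.6 CPM. Ccl5 and Nkg7 were found in every cell of all 9 clones. Depth differed as well, with a median of 7708 UMIs per cell in the middle Ly6c2 clonotype (1642 to 8895) and 3477 in the middle Gzmk clonotype (1079 to 4912), and the 3 clones above without Gzmk UMIs had the highest median depth of the 9.

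The 2 kinds of clonotype stood apart in some genes of the comparison above and not in others. Tigit had a median of 324 CPM in Gzmk clonotypes (109 to 692) and 0 in all 7 Ly6c2 clonotypes, and Itga4 had 604 CPM (362 to 1618) against 0 (0 to 133). These ranges did not overlap, whereas those of the next 5 genes did. Ranges overlapped also for Ccl5, Lag3, Tox, Maf, Klrd1 and Nkg7, the other genes compared between the kinds. No share over all genes was taken, so the gaps are a description. Ccr7 had a median of 0 (0 to 166) against 156 CPM (47.7 to 392), and Ifngr1 64.8 (0 to 234) against 252 CPM (41.3 to 500). Pdcd1 had 129.5 (0 to 1697) against 0 (0 to 165), Itgb1 had 233 (0 to 1042) against 239 CPM (22.2 to 436.5), and Il7r had 570 (38.8 to 2063) against 668 CPM (41.3 to 1146). Of the 21 Gzmk clonotypes 16 lay in hashtag 7, 4 in hashtag 8 and 1 in hashtag 4. Of the 7 Ly6c2 clonotypes 5 lay in hashtag 8, 1 in hashtag 5 and 1 in hashtag 1. Hashtag 8 held both kinds: Tigit stood at 232 to 692 CPM in its 4 Gzmk clonotypes and at 0 in its 5 Ly6c2 clonotypes, and Itga4 at 362 to 604 against 0 to 133 CPM. Ccr7 stood at 0 to 39.8 against 47.7 to 392 CPM there, also with no overlap, whereas Ifngr1 overlapped (0 to 159 against 41.3 to 500 CPM).

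Single cells showed both profiles too, in other proportions. Cells with a Gzmk UMI and no Ly6c2 UMI made up 0% to 75.6% of expanded cells by hashtag (median 27.6%) and 1.16% to 32.1% of single cells (median 6.95%). Cells with Ly6c2 and no Gzmk made up 11.2% to 82.7% (median 51.1%) and 37.8% to 79.9% (median 70.9%). In hashtag 7 the expanded cells were 75.6% Gzmk alone and 11.2% Ly6c2 alone, in hashtag 8 they were 38.5% and 45.0%, and in hashtag 1 they were 1.92% and 82.7%. These shares were not thinned, and the Ly6c2 level itself, 284 to 1661 CPM in expanded and 1177 to 2181 in single cells, was lower in 8 of 8 hashtags without being called (log2 change -0.87, SE 0.28, edgeR adjusted p = 0.235).

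Clone size, counted over all cells with a TRB, could be followed in hashtags 5, 7 and 8, which had at least 10 CD8 cells in each size class. In hashtag 7, Gzmk stood at 501.5 CPM in single cells, 877 in clonotypes of 2, 1167 in those of 3 or 4 and 1537 in those of 5 or more, and Ly6c2 at 1173, 964, 345 and 22.97 CPM. In hashtag 8, Gzmk stood at 339, 503, 580.5 and 312 CPM and Ly6c2 at 1510, 1105, 1351 and 1437. In hashtag 5, Gzmk stood at 121, 468, 393 and 156 CPM and Ly6c2 at 1581, 580, 914 and 2711. The order by size seen in hashtag 7 was thus not seen in hashtags 5 and 8, and each value is 1 sum with no replicate.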

How the data were processed

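The authors deposited the lymph node pool as raw UMI counts per gene and barcode. Per the file headers these came from Cell Ranger 3.1.0, and the submitters' processing notes name mm10 and GRCm38. Receptor contigs and their UMI counts were also deposited by the authors, as was each clonotype's frequency, a fraction of barcodes that was not used here. The aligner settings are not given in the sources used here. The heart libraries were not used.

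Cells were filtered and assigned to hashtags as stated in the report, and no doublet caller was run. UMIs were summed per hashtag and state (8 hashtags, at least 10 cells per state). V, D and J segment genes (641) were left out of the test, since clones share them. edgeR 4.0.16 (R 4.3.3) took 30412 genes to 7792 by filterByExpr, scaled by TMM and fitted hashtag and state by robust quasi-likelihood. DESeq2 1.42.0 was an alternative. SE is the log2 change over the square root of F. CPM are counts scaled to 1000000 UMIs of a sum. Measures and shares were tested by exact sign-flip permutation over hashtags. Other tools were pandas 2.3.3, SciPy 1.17.1 and NumPy 2.4.6 under Python 3.11.15, with Matplotlib 3.10.9 for plots. The fit was also run on simulated counts, drawn with the same dispersion for every gene and without clones. That run is therefore no check of calls for genes whose UMIs sit in few cells or clones. Pairing comes from the design, since both states of a hashtag share its cells' source.

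Genes named were the 12 largest rises and 12 largest falls among called genes with the same sign in at least 6 of 8 hashtags, without mitochondrial, ribosomal protein, receptor, unnamed, Xist and Y-linked genes, plus called members of the gene lists and genes chosen by name. The comparison, its members and its lists were chosen with earlier results of these data known. Alternatives covered tool, scaling, filters, hashtags, clone definition, clone weight, gate, depth and cycling cells. Some genes and a receptor sequence that these rules cover are not reported here.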

Additional observations from a re-analysis of the deposited data

Results flagged for a closer look

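In 3 of 91 sets of 8 hashtag differences, 1 hashtag lay far from the others, with a gap to its nearest neighbour above 0.526 of the whole range. Chance alone flags about 1 in 20 such sets. The share of cells with 2 or more productive TRB contigs was 11.05 points higher in expanded than in single cells of hashtag 2, where the other 7 hashtags were lower in expanded cells. Il10ra, called higher over all hashtags, had a log2 CPM difference of -1.40 in hashtag 3. Cenpa, also called higher, had a log2 CPM difference of -1.96 in hashtag 4, which held 30 expanded cells. Both log2 differences were taken after adding 10 CPM.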

How the results depend on the processing

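Against 81 higher and 175 lower genes, the 8 fits that left out 1 hashtag gave 55 to 111 and 122 to 187. Without the hashtag term (no replicate block, the states unpaired) there were 18 and 84. Fewer or more calls came from DESeq2 (56 and 101), thinning to 1000 UMIs (26 and 56), clones by TRB CDR3 (136 higher), cells with 1 TRB and 1 or 2 TRA (45 higher) and a hashtag 10 times the second (48 higher, with Cdk1 at -0.11). Alternatives chosen after seeing the data gave 126 higher without the deepest cells, 110 lower in hashtags 1 to 6, 49 and 30 in cells of over 3000 UMIs, 11 and 4 in cells of 1000 to 3000 UMIs (1294 genes), and 4 and 13 in that window with no filter on low counts (12690 genes). Called genes kept their sign in every alternative except 3 of 243 with the stricter hashtag, 1 of 184 after thinning, and the window, where 65 of 140 kept it (185 of 256 with no filter). Fewer cells and UMIs entered the window, and beyond that the cause was not tested.

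Signs turned in the window for Itgb1 (-0.0241), Ccr7 (0.18), Lef1 (0.0326), Satb1 (0.0867) and Dapl1 (0.28), and with no filter for Hist2h2ac (-0.0158), Rapgef4 (0.0553), Igfbp4 (0.17), Itgb1 (-0.11), Ccr7 (0.0771), Dapl1 (0.16), Ikzf3 (-0.0336), Lag3 (-0.23), Tox (-0.0447), Klra3 (0.0933), Tgtp2 (0.31), Ifi206 (0.11), S100a11 (-0.0103) and Gzma (-2.22). Of the 9 measures, 6 passed, 3 to 6 with a hashtag left out and 0 in the window, where the TRA contig UMIs (0.19) and the share with a TRA (0.36 points) turned. Among those 6, the TRA contig UMIs and the shares with a TRA and with 2 or more TRA rest on chains that define clones. Their passing therefore carries no test. With clones by TRB CDR3 the shares with 2 or more TRA (0.22 points) and TRB (6.601 points) turned. Of the 15 shares none passed, 11 did unthinned, with Cxcr3 (-10.71 points) and Tcf7 (-19.51 points) turned, and 3 without the largest clonotype of each hashtag (Gzmk, Il7r and Ccr7). Among single genes, measures and shares 512 other values lost their call and 72 gained one in the same direction. With 30 to 77 expanded cells in hashtags 1 to 6, genes of few UMIs were beyond the depth of expanded sums.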
